A study of Mus musculus with 6 samples.

Results

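The 9 genes described here are the liver's main metallothioneins, Mt1 and Mt2, their transcription factor Mtf1, 4 zinc importers of the ZIP family (Slc39a14, Slc39a8, Slc39a4 and Slc39a5) and the exporters Slc30a1 and Slc30a10 of the ZnT family. They were taken by name for their known roles in zinc handling, with earlier results of these data known. No threshold on a measured value was used. They are 9 of the 55385 genes in the count table, and all 9 had enough counts to be among the 14454 genes tested. Poly(A) RNA was sequenced from livers of male wild-type C57BL/6 mice that entered the study at 6 to 8 weeks of age. Every mouse, controls included, received a high-fat diet (HFD) for 10 weeks before the operation and stayed on it for the 12 weeks that followed. The operation was either vertical sleeve gastrectomy (VSG), which removes most of the stomach and leaves a narrow tube, or a sham operation. Each group held 3 libraries, numbered 1 to 3 in sham and 4 to 6 in VSG, and the comparison asks how the liver transcripts of these genes differed after VSG. No unoperated and no chow-fed livers were compared here.

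Metallothioneins are very small proteins of which a large part is cysteine, and they bind zinc and copper in the cytosol. Zinc that accumulates in a cell binds MTF-1, the protein of Mtf1, which then occupies metal response elements (MREs) near the start of metallothionein genes and of Slc30a1. ZIP proteins carry zinc into the cytosol, ZnT proteins carry it out of the cytosol or into vesicles, and liver metallothionein is also a known responder to glucocorticoids and inflammatory cytokines.

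Mt1 and Mt2 lie in 1 gene cluster on mouse chromosome 8 (GRCm38, plus strand), in the order Mt4, Mt3, Mt2, Mt1, with 5.51 kb between Mt2 and Mt1. Mt2 spans chr8:94172664-94173568 and Mt1 spans chr8:94179082-94180327. Their coding sequences are shown because they carry the cysteine pattern that defines the family and because they show how far 2 genes with almost the same profile can be told apart by reads. Each coding sequence without its stop has 183 bases, or 61 codons, of which 20 (32.8%) encode cysteine, printed here in capitals from the GENCODE M21 transcripts Mt1-201 and Mt2-201.
Mt1: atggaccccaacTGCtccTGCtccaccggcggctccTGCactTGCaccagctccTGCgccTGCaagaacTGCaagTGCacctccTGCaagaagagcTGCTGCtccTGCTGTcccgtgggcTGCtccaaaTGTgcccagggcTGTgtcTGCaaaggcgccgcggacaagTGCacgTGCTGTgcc
Mt2: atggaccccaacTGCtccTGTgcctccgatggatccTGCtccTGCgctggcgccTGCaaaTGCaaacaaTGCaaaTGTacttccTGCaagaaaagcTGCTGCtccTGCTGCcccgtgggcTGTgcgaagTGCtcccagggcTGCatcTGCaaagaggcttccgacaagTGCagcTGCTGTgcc
The 2 sequences are identical at 145 of 183 bases (79.2%), and all 20 cysteine codons stand at the same positions. The longest run that the 2 full transcripts share is 20 bases, so any longer stretch of a read differs between them.

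The short stretches around MRE cores near the metallothionein starts are shown because MTF-1 is known to bind such elements. The core was searched as TGCACNC or TGCGCNC on both strands. Within the first 200 bases of Mt1-201 there were 4 matches, each printed 5′ to 3′ on the strand of the match with the core in capitals.
Mt1, chr8:94179087-94179105, plus strand: gctcTGCACTCcgcccgaa
Mt1, chr8:94179105-94179123, plus strand: aaagTGCGCTCggctctgc
Mt1, chr8:94179165-94179183, minus strand: ggttTGCACCCagcaggcg
Mt1, chr8:94179183-94179201, plus strand: ccttTGCGCCCggactcgt
The matching window of Mt2-201 held 3 matches.
Mt2, chr8:94172668-94172686, minus strand: cgccTGCACACgccctttt
Mt2, chr8:94172687-94172705, minus strand: accaTGCACGCgcccccgc
Mt2, chr8:94172725-94172743, plus strand: ctttTGCGCTCgacccaat
Of 21208 coding transcripts searched the same way, 21.0% held at least 1 core, 0.75% held at least 3 and 0.118% held at least 4. GENCODE also lists Mt1 transcripts that start farther downstream, at 94179211 and 94179241, and all 4 Mt1 matches lie before those starts. A match is a string of letters and not a measured binding site.

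In the 250 bases before the RefSeq transcription start, cores were found 1 time in Mt1, 3 times in Mt2, 1 time in Slc30a1 and 3 times in Slc30a10. RefSeq promoter sequences were held for 7 of the 9 genes, the exceptions being Slc39a14 and Slc39a4. Slc39a8 and Slc39a5 have 2 starts each, with 1 core before 1 of them, and Mtf1 had none. Of 32851 mouse promoters, 21.4% held at least 1 core and 5.17% at least 2. The upstream sequences of the 2 exporters, both of which were higher after VSG, are shown with the cores in capitals (GRCm38, plus strand). Capitals that do not read TGCACNC or TGCGCNC are a core on the minus strand.
Slc30a1, chr1:191906531-191906780: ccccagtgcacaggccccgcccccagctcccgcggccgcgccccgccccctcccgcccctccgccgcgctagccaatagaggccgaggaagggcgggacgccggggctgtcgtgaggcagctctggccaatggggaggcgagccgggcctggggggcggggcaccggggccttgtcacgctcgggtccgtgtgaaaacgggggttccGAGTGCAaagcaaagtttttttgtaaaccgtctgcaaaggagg
Slc30a10, chr1:185454598-185454847: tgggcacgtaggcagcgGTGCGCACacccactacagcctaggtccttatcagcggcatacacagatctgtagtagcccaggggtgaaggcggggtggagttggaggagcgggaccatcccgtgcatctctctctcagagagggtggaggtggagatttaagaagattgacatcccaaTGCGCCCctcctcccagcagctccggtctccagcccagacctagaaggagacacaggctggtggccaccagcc
In Slc30a10 the first run of capitals holds 2 cores that overlap on opposite strands. The letters TTCNNNGAA, a STAT element, and AGAACA with TGTTCT after any 3 bases, a glucocorticoid response element, were not found on either strand in the windows of these 7 genes, against 7.02% and 0.00913% of all promoters. Both strings are scarce in windows of 250 bases, so their absence here says little. Bases farther upstream were not searched.

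**Figure D1:**
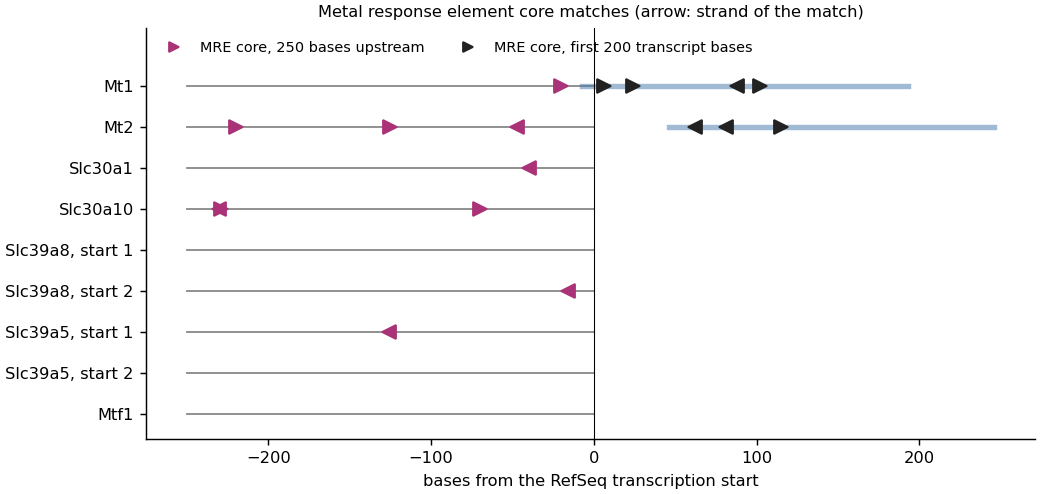
Positions of metal response element cores near the starts of the genes with a RefSeq promoter. The x axis is the distance in bases from the RefSeq transcription start, grey lines are the 250 bases upstream, blue bars the first 200 bases of Mt1-201 and Mt2-201, and arrowheads point along the strand of each match; Mt1 and Mt2 hold 4 and 3 cores inside the blue bars, and Slc30a10 holds 3 upstream.

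Total counts ran from 22804397 to 24191778 per library, and a count of 3, taken as the floor of detection, equals 0.111 to 0.143 CPM (read counts scaled to library size with TMM composition factors). Of the 14454 genes tested, 2118 (14.7%) differed between VSG and sham at an adjusted p under 0.05, 981 (6.79%) of them higher and 1137 (7.87%) lower. In 5732 genes (39.7%) the 3 VSG and the 3 sham libraries did not overlap, in either direction. Among the 9 zinc genes 6 passed the test, 5 higher and 1 lower (with DESeq2 also 6 of 9, where 19.3% of all genes tested passed), and in 7 of 9 the groups did not overlap. The median log2 fold change (VSG over sham) was 0.62 over the 9 genes and 0.03 over all genes tested. The count of 6 changed with the libraries used. It was 3 without sham 1, 4 without sham 2, 2 without sham 3, 2 without VSG 4, 5 without VSG 5 and 0 without VSG 6, while the count over all genes was 1214, 797, 159, 1076, 2732 and 210 in the same fits.

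**Figure D2:**
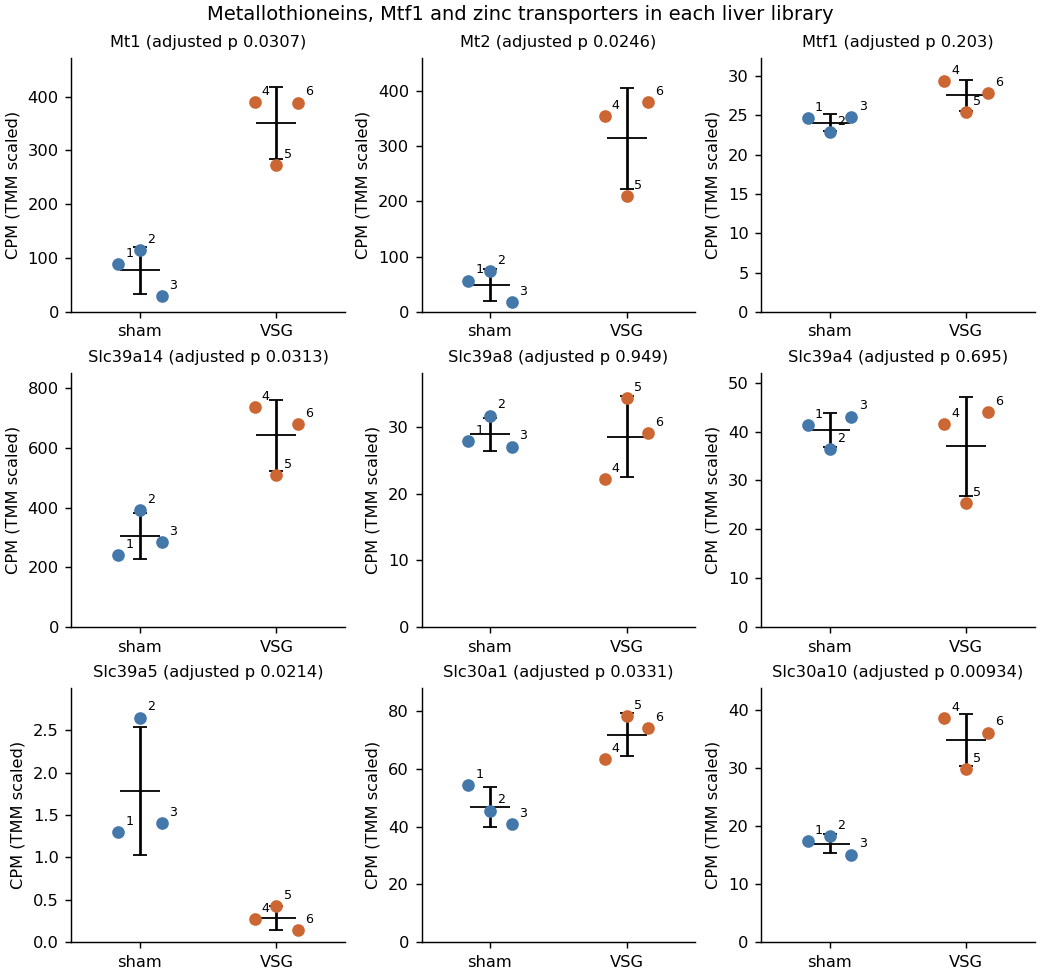
Expression of the 9 genes in each liver library. The y axes are CPM scaled by TMM factors and start at 0, points are libraries with their number, horizontal bars are group means and error bars are SD (n = 3); the groups are apart for Mt1, Mt2, Mtf1, Slc39a14, Slc39a5, Slc30a1 and Slc30a10 and overlap for Slc39a8 and Slc39a4.

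Both metallothioneins were several-fold higher in the livers of VSG-operated mice. Mt1 (ENSMUSG00000031765.8) stood at 88.5, 114 and 29.4 CPM in sham 1, 2 and 3 and at 389, 273 and 389 CPM in VSG 4, 5 and 6. Sham 3 was the lowest of all libraries, VSG 5 was the lowest of its group, and even so the lowest VSG value lay above the highest sham value. The group means were 77.5 ± 43.5 and 350 ± 67.0 CPM (SD, n = 3), a 4.53-fold difference (log2 fold change 2.18, SE 0.473, 95% interval 1.05 to 3.30, edgeR adjusted p = 0.0307). Mt2 (ENSMUSG00000031762.7) stood at 56.4, 73.2 and 17.4 CPM in sham and 354, 209 and 379 CPM in VSG livers. It ranked the sham libraries in the same order as Mt1, again had VSG 5 lowest of its group, and the groups did not overlap. Its means were 49.0 ± 28.6 and 314 ± 91.9 CPM, a 6.41-fold difference (log2 fold change 2.68, SE 0.530, 95% interval 1.42 to 3.94, edgeR adjusted p = 0.0246). The spread among sham livers was wide for both genes. Both calls were lost when sham 1, VSG 4 or VSG 6 was left out, with edgeR adjusted p of 0.0705, 0.0637 and 0.0986 for Mt1 and of 0.0616, 0.0511 and 0.0873 for Mt2, although the log2 fold changes stayed between 1.78 and 2.57 and between 2.27 and 3.09 over the 6 fits with a library left out.

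Reads of Mt1 and Mt2 together made up 0.0166%, 0.0173% and 0.00510% of all counts in sham and 0.0720%, 0.0480% and 0.0689% in VSG livers. The groups did not overlap, and the share rose from a mean of 0.0130% ± 0.00686 to 0.0630% ± 0.0131 (exact two-sided permutation test, p = 0.1, the smallest p that 3 against 3 libraries allow). The 2 genes did not change in equal proportion. Mt1 counts were 1.57, 1.56 and 1.69 times Mt2 counts in sham livers and 1.10, 1.31 and 1.02 times in VSG livers. Every VSG ratio was below every sham ratio, and on the log2 scale per base of gene length the mean ratio moved from -0.40 ± 0.0644 to -0.90 ± 0.180 (exact two-sided permutation p = 0.1). Which of the 2 was the more abundant per base depends on the length used. With the merged exon length of the table, 1246 bases for Mt1 and 588 for Mt2, Mt2 was ahead in all 6 libraries; with the lengths of Mt1-201 (549 bases) and Mt2-201 (511 bases), Mt1 was ahead in 5 of 6, VSG 6 being the exception at a ratio of 0.954. Exons of Gm45774, on the opposite strand, cover 432 of the 588 exon bases of Mt2, and since the strand option of the counting is not given, reads of the 2 genes may not be fully separated. Gm45774 itself held 6, 5 and 2 counts in sham and 35, 17 and 28 in VSG livers, against 458 to 7954 for Mt2.

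The other cluster genes were close to absent. Mt3, known mainly from brain, had 0 counts in all sham livers and 1, 0 and 1 in VSG livers, and Mt4, known from squamous epithelium, had 3 counts in sham 1 and 0 elsewhere, all within the floor. Higher metallothionein counts were thus found at Mt1 and Mt2 and were not detectable at Mt3 and Mt4 at this depth.

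Mtf1 (ENSMUSG00000028890.13, chr4:124802104-124849800, plus strand), which encodes the zinc-sensing activator of metallothionein genes, differed little between groups. It stood at 24.6, 22.8 and 24.8 CPM in sham and 29.4, 25.4 and 27.9 CPM in VSG livers. The lowest VSG library, VSG 5, was just above the highest sham library, so the groups did not overlap. The log2 fold change was 0.19 (SE 0.0962, 95% interval -0.03 to 0.42, edgeR adjusted p = 0.203) and its upper bound lay below the lower bounds of Mt1 and Mt2. An opposite-strand gene, 1110065P20Rik, shares 721 of its 8907 exon bases and held 112 to 209 counts per library against 500 to 666 for Mtf1, so with the strand option not given the Mtf1 values are less certain.

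Among the importers, Slc39a14 and Slc39a5 changed in opposite directions and Slc39a8 and Slc39a4 did not pass the test. Slc39a14 (ENSMUSG00000022094.15, chr14:70303469-70351425, minus strand) encodes ZIP14, which brings zinc, iron and manganese into hepatocytes. Its transcript stood at 240, 391 and 286 CPM in sham and 739, 510 and 680 CPM in VSG livers. VSG 5 was again the lowest of its group and sham 2 the highest of the controls, with no overlap between groups. The means were 306 ± 77.4 and 643 ± 119 CPM, a 2.11-fold difference (log2 fold change 1.07, SE 0.235, 95% interval 0.51 to 1.63, edgeR adjusted p = 0.0313). This call was lost without sham 1, sham 3, VSG 4 or VSG 6 (edgeR adjusted p 0.0753, 0.134, 0.0690 and 0.105), with log2 fold changes of 0.92 to 1.29 over the fits with a library left out.

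Slc39a5 (ENSMUSG00000039878.13, chr10:128395931-128401229, minus strand) was the only one of the 9 genes that passed the test as lower after VSG. It encodes ZIP5, an importer known best from pancreas and intestine, and it was scarce in all livers. Counts were 35, 58 and 37 in sham and 6, 10 and 3 in VSG livers, or 1.29, 2.65 and 1.41 CPM against 0.272, 0.428 and 0.143 CPM. Every VSG library lay below every sham library, and VSG 6 was at the floor of 3 counts. The means were 1.78 ± 0.753 and 0.281 ± 0.142 CPM, 6.16-fold lower after VSG (log2 fold change -2.62, SE 0.485, 95% interval -3.78 to -1.47, edgeR adjusted p = 0.0214). Without sham 2, sham 3, VSG 4 or VSG 6 the adjusted p was 0.0524, 0.0818, 0.0553 and 0.0795, and on the log2(FPKM + 1) scale, which compresses low values, the difference was -0.66. Of 5 pancreatic acinar markers 4 had too few counts to be tested and 3 were at or under the floor in every library. The one tested, Cela1, was lower after VSG (log2 fold change -0.79, SE 0.174, edgeR adjusted p = 0.0316). The list summed to 8.31 to 9.27 CPM in sham and 3.91 to 5.81 CPM in VSG livers. Nearly all of that sum was Cela1 itself (8.45 ± 0.381 and 4.87 ± 0.913 CPM). The 4 enterocyte markers summed to 116 to 146 CPM in sham and 24.5 to 39.6 CPM in VSG livers, but Fabp2 alone carried that sum (133 ± 16.1 and 32.0 ± 7.65 CPM, log2 fold change -2.06, edgeR adjusted p = 0.00546). The enterocyte genes Vil1, Lct and Sis had 0 to 12 counts per library, and their mean CPM was 0.333, 0.0428 and 0.0739 in sham and 0.389, 0.0754 and 0.182 in VSG livers, not lower after VSG. The part of such cells in the Slc39a5 result was not tested.

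Slc39a8 (ENSMUSG00000053897.15, chr3:135825279-135888572, plus strand) encodes ZIP8, the closest relative of ZIP14 and an importer of zinc and manganese. It stood at 28.0, 31.8 and 27.1 CPM in sham and 22.2, 34.4 and 29.1 CPM in VSG livers, with the highest and the lowest library both in the VSG group. The log2 fold change was -0.02 (SE 0.169, 95% interval -0.42 to 0.38, edgeR adjusted p = 0.949). Slc39a4 (ENSMUSG00000063354.7, chr15:76612383-76617384, minus strand), whose product takes up dietary zinc in the intestine, stood at 41.4, 36.5 and 43.1 CPM in sham and 41.5, 25.4 and 44.0 CPM in VSG livers. VSG 5 was far below the other 5 libraries, which lay close together. Its log2 fold change was -0.13 (SE 0.208, 95% interval -0.62 to 0.37, edgeR adjusted p = 0.695). The sign of both genes changed when 1 library was left out, and for both the interval excludes a 2-fold change either way.

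Both exporters were higher after VSG. Slc30a1 (ENSMUSG00000037434.7, chr1:191906767-191913247, plus strand) encodes ZnT1, the zinc exporter of the plasma membrane. It stood at 54.4, 45.6 and 40.8 CPM in sham and 63.5, 78.3 and 74.1 CPM in VSG livers, without overlap. Here VSG 5, the lowest VSG library for Mt1, Mt2 and Slc39a14, was the highest. The means were 46.9 ± 6.88 and 72.0 ± 7.60 CPM, a 1.53-fold difference (log2 fold change 0.62, SE 0.138, 95% interval 0.29 to 0.95, edgeR adjusted p = 0.0331). The call was lost when libraries were scaled by total counts alone (log2 fold change 0.47, edgeR adjusted p = 0.123), and without sham 2, sham 3, VSG 5 or VSG 6 (edgeR adjusted p 0.0941, 0.130, 0.0597 and 0.109).

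Slc30a10 (ENSMUSG00000026614.7, chr1:185454848-185468762, plus strand) encodes ZnT10, a family member best known for exporting manganese from liver and brain cells. Its transcript stood at 17.5, 18.2 and 15.1 CPM in sham and 38.6, 29.9 and 36.2 CPM in VSG livers. The lowest VSG library, VSG 5, was well above the highest sham library. The means were 16.9 ± 1.64 and 34.9 ± 4.47 CPM, a 2.06-fold difference (log2 fold change 1.04, SE 0.133, 95% interval 0.73 to 1.36, edgeR adjusted p = 0.00934), the smallest adjusted p of the 9 genes. It was 0.0546 without sham 3 and 0.0526 without VSG 6. Opposite-strand genes share 468 of the 5244 exon bases of Slc30a1 (1700034H15Rik, 13 to 22 counts per library) and 533 of the 6508 of Slc30a10 (Gm2061, 6 to 29 counts), which is few against either gene.

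**Figure D3:**
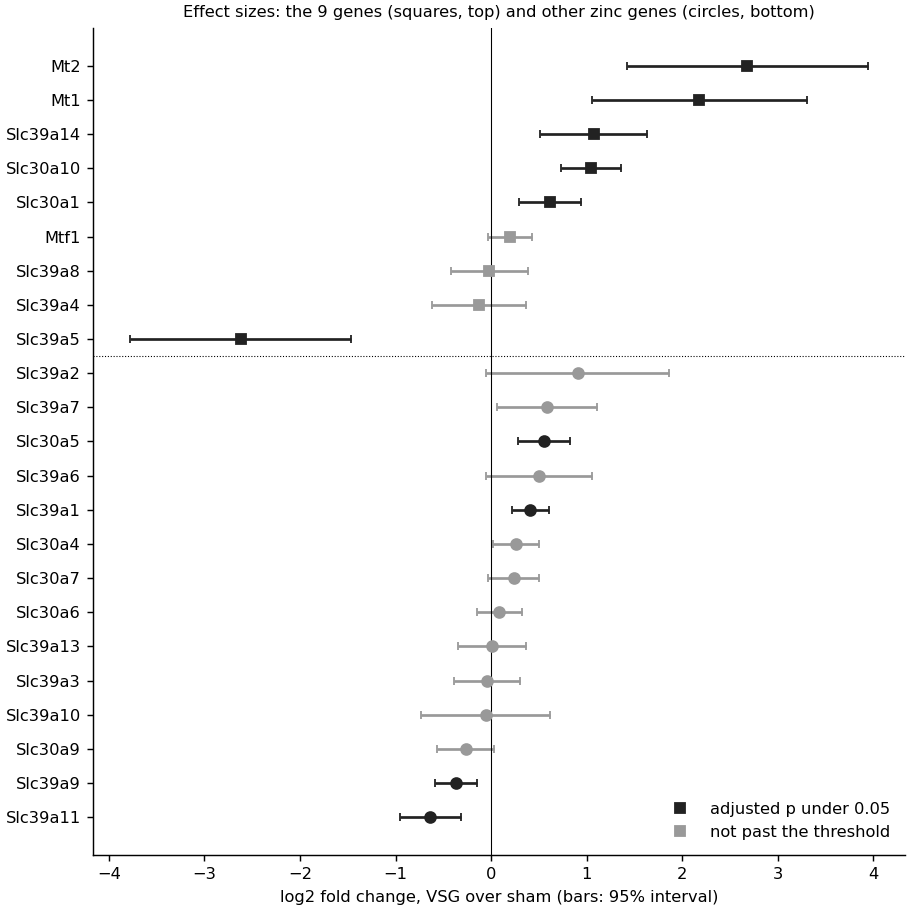
Log2 fold changes (VSG over sham) of the 9 genes (squares, above the dotted line) and of the 14 other zinc transporter genes tested (circles). Bars are 95% intervals of the edgeR fit and dark symbols passed an adjusted p of 0.05; Mt2 (2.68) and Slc39a5 (-2.62) are at the ends of the range.

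Per length, the order of levels among the 9 genes changed at a few places only. In FPKM (CPM divided by the merged exon length in kilobases), sham livers ranked Mt2 (83.3 ± 48.7), Mt1 (62.2 ± 35.0), Slc39a14 (29.0 ± 7.34), Slc39a4 (13.0 ± 1.11), Slc30a1 (8.95 ± 1.31), Slc39a8 (3.78 ± 0.324), Mtf1 (2.70 ± 0.120), Slc30a10 (2.60 ± 0.252) and Slc39a5 (0.801 ± 0.338). The ranges of Mt2 and Mt1, of Mt2 and Slc39a14, of Mt1 and Slc39a14, and of Mtf1 and Slc30a10 overlapped. Within each sham library Mt2 stood above Mt1 on these lengths, whereas sham 3 had Slc39a14 above Mt1 and sham 2 had Slc30a10 above Mtf1, against the order of the means. In VSG livers Mt2 (534 ± 156) and Mt1 (281 ± 53.8) no longer overlapped each other or Slc39a14 (61.0 ± 11.3) on the merged lengths, whereas on the lengths of Mt1-201 and Mt2-201 the Mt1 to Mt2 ratio in VSG livers was 1.02, 1.22 and 0.954. Slc30a1 (13.7 ± 1.45) overlapped Slc39a4 (11.9 ± 3.25), Slc30a10 (5.36 ± 0.687) stood above Slc39a8 (3.73 ± 0.797), which overlapped Mtf1 (3.09 ± 0.223), and Slc39a5 (0.126 ± 0.0640) was last. Within libraries Slc39a4 stood above Slc30a1 in VSG 4 (13.4 and 12.1 FPKM) and was level with it in VSG 6 (14.2 and 14.1 FPKM), so the order of these means rested on VSG 5 (8.18 and 14.9 FPKM). Mtf1 stood above Slc39a8 in VSG 4.

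The other members of the 2 transporter families and Mt3 and Mt4 make up 20 further genes, of which 14 were tested and Slc39a12, Slc30a2, Slc30a3, Slc30a8, Mt3 and Mt4 were too scarce. Of the 14, 2 were higher after VSG, 2 were lower and 10 did not pass, with a median log2 fold change of 0.16 and no overlap between groups in 7 of the 14. Over all genes tested 14.7% passed and 39.7% did not overlap. Slc39a1, encoding the widely expressed plasma membrane importer ZIP1, stood at 53.1, 55.0 and 54.4 CPM in sham livers and at 74.7, 69.5 and 71.9 CPM after VSG (log2 fold change 0.41, SE 0.0800, edgeR adjusted p = 0.0236). Slc30a5, which loads zinc into the Golgi, stood at 45.0, 46.6 and 46.0 CPM and at 64.2, 59.8 and 77.8 CPM (log2 fold change 0.55, SE 0.116, edgeR adjusted p = 0.0286). In both genes the sham libraries were nearly level and every VSG library was above them. Slc39a9, encoding ZIP9, fell from 84.6, 93.4 and 93.6 CPM to 66.5, 72.5 and 71.8 CPM (log2 fold change -0.37, SE 0.0928, edgeR adjusted p = 0.0450). Slc39a11, encoding ZIP11, fell from 29.3, 26.5 and 33.7 CPM to 20.9, 16.6 and 20.1 CPM (log2 fold change -0.64, SE 0.135, edgeR adjusted p = 0.0294). Of those that did not pass, the 3 most abundant per length were Slc30a9 (log2 fold change -0.27, adjusted p = 0.184), Slc30a6 (0.09, 0.555) and Slc30a7 (0.23, 0.189). With scaling by total counts 2 genes passed as lower and 0 as higher, with no filter beyond 1 count 1 passed in each direction, and without sham 1, sham 3 or VSG 6 none passed. Per length (FPKM) Slc39a1 was second to Slc39a14 among the ZIP genes in the mean of both groups.

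Summed over the 14 ZIP genes, FPKM was 87.6, 101 and 94.6 in sham and 141, 111 and 134 in VSG livers, with means of 94.5 ± 6.81 and 128 ± 15.8. Slc39a14 alone held 26.0%, 36.6% and 28.6% of this sum in sham and 49.9%, 43.8% and 48.1% in VSG livers. No VSG share fell within the sham range, and the mean share rose by 16.9 percentage points (exact two-sided permutation p = 0.1, the smallest possible). Exons of Gm20427, on the same strand, cover 2084 of the 2584 exon bases of Slc39a7, so the part of that gene in the ZIP sum is uncertain. Over the 10 ZnT genes the sum was 39.0, 36.7 and 36.2 FPKM in sham and 46.2, 47.0 and 51.4 FPKM in VSG livers, with means of 37.3 ± 1.48 and 48.2 ± 2.83 (exact two-sided permutation p = 0.1). The 2 sums cannot be read as zinc transport, since family members sit in different membranes.

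**Figure D4:**
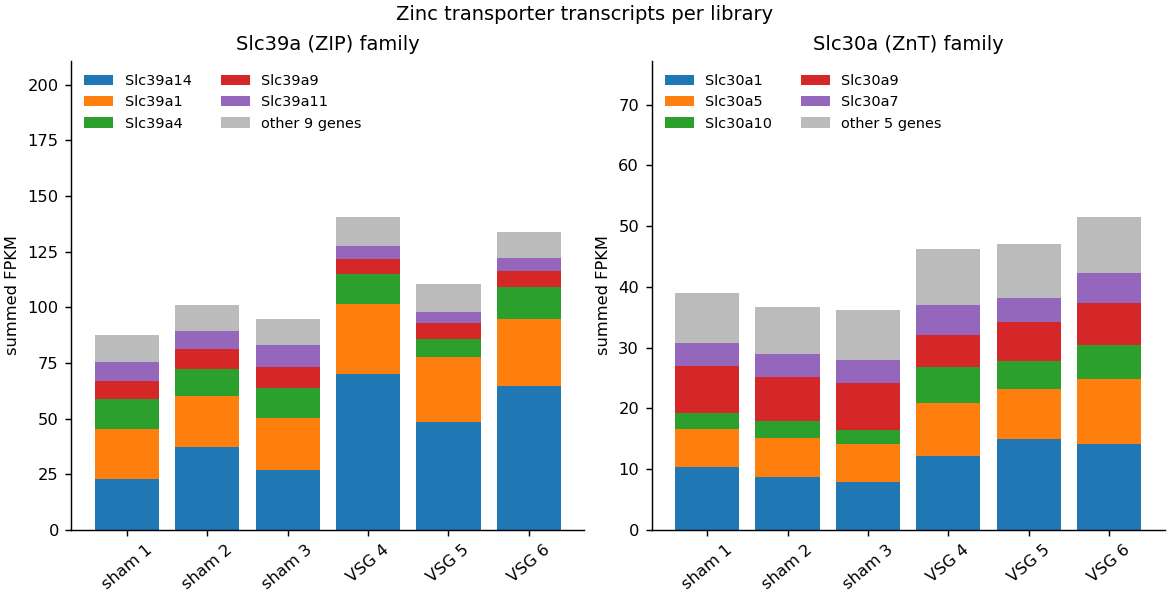
Summed transcript levels of the zinc transporter families in each library. The y axes are FPKM summed over the 14 Slc39a genes (left) and the 10 Slc30a genes (right). Colours on the left mark Slc39a14, Slc39a1, Slc39a4, Slc39a9 and Slc39a11. Colours on the right mark Slc30a1, Slc30a5, Slc30a10, Slc30a9 and Slc30a7. Grey is the rest, which on the right includes Slc30a6. The Slc39a14 block grows from 26.0% to 36.6% of the ZIP bar in sham to 43.8% to 49.9% in VSG livers.

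The profile of Mt2 over the 6 libraries was the most like that of Mt1 among 9964 genes with a mean of at least 5 CPM (Pearson's r of log2 CPM 0.998). Next came Rsf1 (0.993), Hnrnpa2b1 (0.992), Tnrc6b (0.992), Naa15 (0.990) and Habp2 (0.990), which are not zinc genes. Slc30a10 ranked 143rd (0.950), Slc39a14 678th (0.882), Slc30a1 723rd (0.878), Mtf1 2289th (0.675), Slc39a8 5154th (-0.06) and Slc39a4 5711th (-0.24), while Slc39a5 was below 5 CPM. The genes most like Slc39a14 were Foxa3 (0.996), Gpc4 (0.994), Klhl2 (0.993), Gm16348 (0.993) and Ppp4r2 (0.992). These correlations run over 6 points that fall into 2 groups, so any gene with a large group difference scores high, and they describe likeness only.

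Metallothioneins bind copper too, and of 12 copper handling genes 4 passed the test, where 14.7% of all genes tested did. Ceruloplasmin (Cp), the copper-carrying ferroxidase of plasma, was higher after VSG (log2 fold change 1.68, SE 0.424, edgeR adjusted p = 0.0437), as was the metalloreductase gene Steap4 (2.63, SE 0.478, adjusted p = 0.0205). Atp7b, which exports copper into bile and loads ceruloplasmin, was lower (-0.71, SE 0.141, adjusted p = 0.0256), as was Atox1, the chaperone that hands copper to it (-0.91, SE 0.114, adjusted p = 0.00906). In these 4 genes the groups did not overlap, and for Cp and Steap4 VSG 5 was the lowest VSG library, at 2886 CPM against 7561 and 8442, and at 748 CPM against 2470 and 2525. The other 8, among them the copper importer Slc31a1 (0.09, adjusted p = 0.764), did not pass, and the median of the 12 was 0.11. Without sham 2 or sham 3 only 1 copper gene passed, without sham 1 or VSG 4 there were 2, and without VSG 6 there was none.

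Cytokine and glucocorticoid pathways that are known to raise metallothionein transcripts were followed with 14 genes, among them acute-phase targets. The list was chosen with earlier results of these data known, so its counts are a description. The part of these pathways in the metallothionein result was not tested. Of the 14 genes 8 were higher after VSG, none was lower, and the median log2 fold change was 0.82. Over all genes tested 6.79% were higher and 7.87% lower. Within the interleukin-6 pathway, the receptor subunit Il6st (log2 fold change 0.61, adjusted p = 0.0218), the transducer Stat3 (1.02, adjusted p = 0.00809) and the feedback inhibitor Socs3 (2.44, adjusted p = 0.0104) were higher. The interleukin-1 receptor Il1r1 (2.67, adjusted p = 0.0212) was higher too. Of their acute-phase targets, Saa1 (5.87, adjusted p = 0.00783), Lcn2 (4.78, adjusted p = 0.0249), Hp (1.84, adjusted p = 0.0296) and Hamp (2.74, adjusted p = 0.0313) were higher. Saa1 stood at 179, 82.8 and 132 CPM in sham and 11542, 2610 and 8879 CPM in VSG livers. VSG 5 was the lowest VSG library for 6 of these 8 genes, as it was for Mt1, Mt2 and Slc39a14, and the highest for Il6st (403, 413 and 391 CPM in VSG 4, 5 and 6) and Hamp (575, 675 and 225 CPM). Among sham libraries, sham 2 was the highest for Mt1, Mt2 and Slc39a14. It was the lowest for Socs3, Saa1, Lcn2 and Hp. For Stat3 and Il1r1 it was the highest, and for Il6st and Hamp it lay between sham 1 and sham 3. None of the glucocorticoid genes passed: the receptor Nr3c1 had a log2 fold change of 0.27 (adjusted p = 0.169) and the target genes Fkbp5, Tsc22d3 and Per1 had -0.01, -0.84 and -1.07 (adjusted p = 0.992, 0.253 and 0.127). Il6ra and Jak1 did not pass either. The count of 8 fell to 4 without sham 1, to 3 without sham 2, to 0 without sham 3 and to 2 without VSG 6.

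Markers of other cells moved with the groups as well. All 9 neutrophil markers were higher after VSG, and their summed level was 2.74 to 14.7 CPM in sham and 150 to 1832 CPM in VSG livers. Of 6 Kupffer cell and macrophage markers 3 were higher. The 6 summed to 319 to 656 CPM in sham and 609 to 1430 CPM in VSG livers, so the sums overlapped. Cd5l, Adgre1 and Csf1r did not pass, and the groups overlapped for Cd5l and Adgre1. Over all genes tested 6.79% were higher and 7.87% lower. VSG 5 was the lowest VSG library for all 9 neutrophil and all 6 Kupffer cell and macrophage markers, as it was for Mt1, Mt2 and Slc39a14. The sham libraries did not share an order in this way. Sham 2 was the highest of them for Mt1, Mt2 and Slc39a14. It was the lowest of them for all these markers except Elane, Prtn3 and Timd4, which were lowest in sham 3. None of 8 hepatocyte markers, 4 sinusoidal endothelial markers or 4 erythroid markers passed, and the hepatocyte markers, which summed to 67614 to 114036 CPM in sham and 49750 to 82180 CPM in VSG livers, were those of a liver in every library. Of 4 stellate cell markers 1 was lower (median log2 fold change -1.14). Of 4 bile duct markers 1, Sox9, was higher (log2 fold change 1.77, edgeR adjusted p = 0.0359), while Krt19, Krt7 and Epcam did not pass and had negative log2 fold changes of -0.76, -0.84 and -1.20. In whole tissue a change in the number of cells of a type and a change in RNA per cell cannot be told apart, and the part of these cells in the metallothionein and transporter results was not tested.

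**Figure D5:**
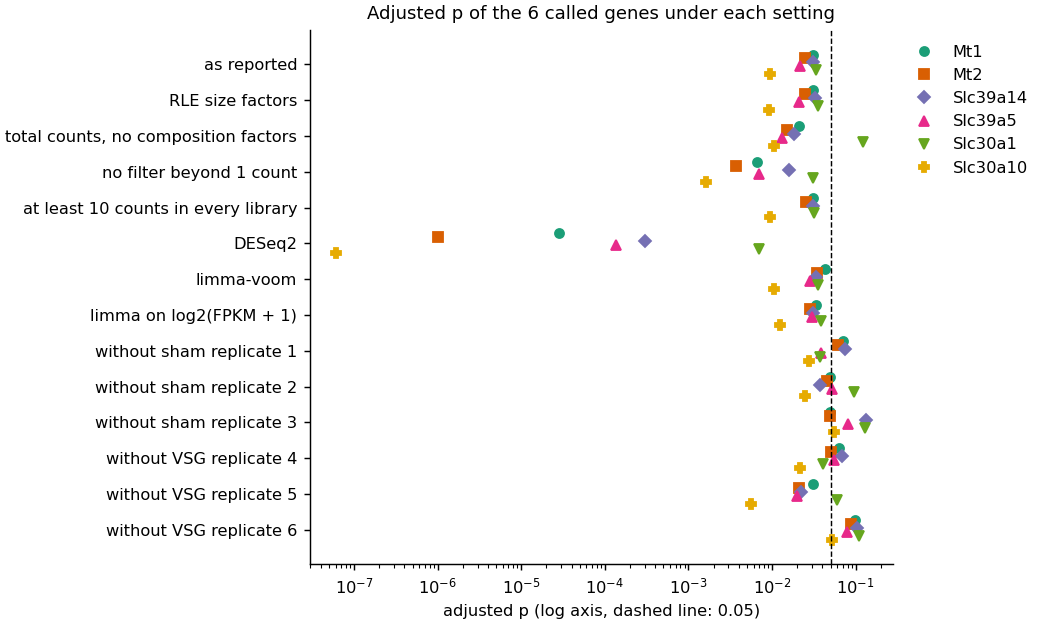
Adjusted p of the 6 genes that passed the test, under each way of processing the counts. The x axis is the adjusted p on a log scale with a dashed line at 0.05, and each row is a setting, the top row being the values reported; all 6 genes stay left of the line under DESeq2, limma-voom and limma on log2(FPKM + 1), Slc30a1 crosses it under total counts, and leaving out VSG 6 takes all 6 across it.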

How the data were processed

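RNA was extracted from liver, and strand-specific poly(A) libraries were sequenced by the authors. Per the submitters' processing notes, the tools were FastQC 0.10.1, STAR 2.6.0 and featureCounts 2.0.3 with the mm10 build. The authors deposited raw counts per gene with the summed exon length. The annotation release and strand option are not given in the sources used here. Symbols came from GENCODE M21 (GRCm38), which matched 55144 of 55385 genes, 657 of them without the identifier version.

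Group differences were tested on the counts in edgeR 4.0.16 (R 4.3.3; filterByExpr with minimum count 10 and minimum total 15, TMM factors of 0.897 to 1.15, glmQLFit and glmQLFTest, group as the only term), with Benjamini-Hochberg adjustment over 14454 genes. Where no tool is named, an adjusted p is from this model. SE is the log2 fold change divided by the square root of F. A script was tested on simulated data. Groups came from the sample titles. The labels do not say whether livers of a group shared a litter or a day of preparation, so p-values measure the spread between these libraries, and no 2 libraries of a group agreed within sampling noise (chi-square per degree of freedom 25.2 to 193). Floors cover counting error only. Alternatives were RLE size factors, total counts, a filter of only 1 count, a stricter one of 10 counts per library, DESeq2 1.42.0, limma 3.58.1 with voom or on log2(FPKM + 1), and leaving out each library. The Slc39a14 share and the summed ZIP and ZnT levels were added after seeing the data.

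The 9 genes and all lists were chosen with earlier results of these data known. Named genes are the 9, every gene of the zinc, copper and inducer lists past an adjusted p of 0.05, the 3 most abundant other zinc genes that did not pass, and the 5 genes most like Mt1 and most like Slc39a14. Other genes (Mt3, Mt4, Slc39a7, genes on overlapping exons, glucocorticoid genes, Slc31a1, Il6ra, Jak1 and single cell markers) were named after their values were seen. Promoter sequences are from RefSeq (GRCm38), and transcript sequences from GENCODE M21.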

Additional observations from a re-analysis of the deposited data

How the results depend on the processing

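No paired analysis was possible because the sham and VSG libraries share no replicate numbers. Of the 6 zinc genes that passed, 6 also passed with RLE size factors, no filter beyond 1 count, DESeq2, limma-voom and limma on log2(FPKM + 1), and 5 with total counts or at least 10 counts in every library, where Slc39a5 was not tested. DESeq2 called 3270 of 16910 genes (19.3%). Total counts moved the median log2 fold change of all genes from 0.03 to -0.11 and the split of calls from 981 higher and 1137 lower to 486 higher and 1513 lower, and gave Slc30a1 a log2 fold change of 0.47. Of the other zinc genes 2 passed with total counts and 2 with no filter beyond 1 count.

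Leaving out each library in turn gave 0 to 5 of the 9 genes past the threshold, 159 to 2732 of all genes, 0 to 3 other zinc genes, 0 to 4 copper genes and 0 to 8 inducer genes. Over the same 6 fits the log2 fold changes ran from 1.78 to 2.57 (Mt1), 2.27 to 3.09 (Mt2), 0.92 to 1.29 (Slc39a14), -3.08 to -2.23 (Slc39a5), 0.52 to 0.73 (Slc30a1) and 0.96 to 1.12 (Slc30a10), with no change of direction. Slc39a8 turned from -0.02 to 0.050 without sham 2 and to 0.14 without VSG 4 (range -0.19 to 0.14), and Slc39a4 from -0.13 to 0.063 without VSG 5 (range -0.27 to 0.063), the threshold not being passed in either case. The cause was not tested. Depth limits Slc39a5, at 3 to 10 counts per VSG library.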
